A study of Homo sapiens with 16 samples.

Results

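HCC70 is an established human breast cancer cell line, counted as basal-like and triple-negative because it lacks strong oestrogen receptor, progesterone receptor and HER2 expression. RNA came from HCC70 cells infected with plko, taken from its name as the lentiviral hairpin backbone without a targeting hairpin. It was compared with RNA from cells infected with control hairpins of 3 constructs. These constructs are named shRFP, shLACZ and shLUC, for red fluorescent protein, the bacterial lacZ gene and luciferase. None of these is encoded in human cells. The comparison used 8 of the 16 libraries of the series, plko 1, plko 2 and 2 libraries of each control construct. The latter are called the 6 hairpin libraries from here on. Genes were kept where the deposited value was 5 or more in at least 2 of these 8 libraries, which left 10323 of the 11282 genes of the table.

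All 8 libraries came from HCC70 cells grown in multiwell plates in serum-containing RPMI medium with penicillin and streptomycin, then infected, so that no uninfected cells were among them. The other 8 libraries of the series carry hairpins against FOXA1, KLF5, NFIB or RBPJ, which are all transcription factors. The labels give every library a clone identifier of its own, including the 2 libraries of a control construct. A control construct is therefore a target name shared by 2 clones, not 1 hairpin in duplicate. The spread within a construct includes any difference between clones. The identifier of plko 2 consists of zeros after its prefix whereas that of plko 1 does not, so whether both carried the same vector is not known from the labels. No label says that the 2 libraries of a construct came from separate cultures, and p-values measure only the spread between these samples, which may be technical.

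A short hairpin RNA is transcribed in the nucleus, exported, cut by DICER1 and loaded into an Argonaute protein, which then silences matching transcripts. A control hairpin passes through the same machinery without a human target, whereas an empty vector does not supply a hairpin meant to silence a gene, so the choice of control is part of the measurement in any hairpin experiment. In basal-like breast cancer cells the epithelial cytoskeleton is made of paired keratins and actin, stress and squamous genes mark the keratinocyte-like side of the lineage, and lack of oxygen switches on a gene set that is driven by hypoxia-inducible factors.

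Recovered reads numbered 375713 in plko 1 and 1256160 in plko 2, and from 580015 to 1264671 in the hairpin libraries. The median gene had 11 reads in plko 1 and 39 in plko 2, and 1 read in plko 1 was worth a normalized signal of 2.21, against 0.62 in plko 2. Across genes, Pearson's r of log2(value + 1) was 0.93 to 0.96 between hairpin libraries, 0.92 to 0.95 between plko 2 and the hairpin libraries and 0.87 to 0.89 between plko 1 and the hairpin libraries. The 2 plko libraries correlated at 0.92 with each other. Genes are not independent replicates, and these coefficients are a description that also reflects depth.

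The labelled cell type was checked against its markers. Of 10 markers of HCC70 epithelium, 9 passed the filter on low values, TP63 being the exception. Their summed signal was 3627 in plko 1, 4896 in plko 2 and 4714 to 6617 in the hairpin libraries. Of these 9, 3 were lower and 0 higher with both plko libraries together (limma, adjusted p under 0.05), beside 6.95% and 3.02% of all genes. KRT8 and KRT18, described below, were among the 3. KRT5, a basal keratin, was at 2085 and 2753 in plko 1 and plko 2 and at 2527 to 3706 in the hairpin libraries. EPCAM, an epithelial surface protein, was at 339.8 and 347 against 281 to 377. ESR1, the oestrogen receptor, was at 2.21 and 1.86 against 3.4 to 10.7. One fibroblast gene of 8 (COL1A1), 1 endothelial gene of 6 (ENG) and 1 leukocyte gene of 6 (CD68) passed the filter. COL1A1 was at 11 and 13.6 against 6.8 to 25.8, ENG at 2.21 and 4.34 against 4.22 to 8.84, and CD68 at 8.82 and 23.5 against 21.1 to 31.1.

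The first question was how far the empty vector differed from the 3 hairpin constructs. With both plko libraries taken as one group, 312 genes were higher and 717 lower than in the 6 hairpin libraries, which is 3.02% and 6.95% of the genes tested (limma, adjusted p under 0.05). The median log2 difference of the genes called higher was 1.02 in plko 1 and 0.67 in plko 2, and that of the genes called lower was -1.14 and -0.88. Of the 1029 genes called, 955 had both plko libraries outside the range of all 6 hairpin libraries, and plko 1 lay farther from the hairpin mean than plko 2 for 740. Over all genes tested, both plko libraries lay above all 6 hairpin libraries for 1059 genes (10.3%) and below them for 1308 (12.7%). Without plko 1 the 1029 calls became 310, of which 17 were higher and 293 lower. With every library thinned to the depth of plko 1 there were 523 calls, 121 higher and 402 lower.

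As background, the 3 hairpin constructs were compared with each other in the 6 hairpin libraries. There 12 genes passed (0.116%, limma F test), with 730 genes at an unadjusted p under 0.05, and edgeR called 17. This count ranged from 0 (without shRFP 1 or shRFP 2) to 23 (without shLACZ 2) when 1 library was left out.

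Taken alone, plko 1 differed from the hairpin libraries at 522 genes higher (5.06%) and 993 lower (9.62%). Plko 2 differed at 16 genes higher (0.155%) and 279 lower (2.7%). In these fits a lone library is assumed to vary as the hairpin libraries do. Of the genes called, 10 were higher and 162 lower in each plko library, and 0 were called in opposite directions. The limma fit gives a shallow library the same weight as a deep one. On the recovered reads edgeR, which takes depth into account, called 267 higher and 299 lower in plko 1, and 77 higher and 274 lower in plko 2. DESeq2 called 228 higher and 240 lower in plko 1. After thinning to one depth limma called 524 genes in plko 1.

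The gene with the smallest p was KRT8, the type II keratin of simple and luminal epithelium. KRT8 was at 22.1 in plko 1 and 14.3 in plko 2, and at 177 to 256 in the hairpin libraries, with a median of 228. Both plko libraries lay far below every hairpin library, and the difference was -3.54 ± 0.20 (SE) on the log2(value + 1) scale (limma adjusted p = 3.18e-10). KRT18, the type I keratin that pairs with KRT8 in filaments, was at 17.6 and 20.5, against 42.2 to 55.1 with a median of 47.3. It fell by 1.28 ± 0.22 on the log2 scale (limma adjusted p = 0.000941), and the groups did not overlap. In such bulk samples, fewer cells that express a gene and less RNA of that gene per cell cannot be told apart.

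KRT19 and KRT7, the other members of the simple keratin list that were tested, were lower as well, so that 4 of 4 were called lower, against 6.95% of all genes. KRT19 was at 843 and 696 against 984 to 1431 (-0.68, limma adjusted p = 0.0115). KRT7 was at 953 and 1198 against 1393 to 1589 (-0.49, limma adjusted p = 0.046). The call of KRT7 was lost in most alternatives, with an adjusted p of 0.556 after a correction for GC content, and that of KRT19 was lost with GC correction (0.178) and without plko 2 (0.0671). KRT8 and KRT18 passed in every alternative run on both plko libraries together.

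Of 20 genes of desmosomes and adherens junctions, 2 were lower and 2 higher, beside 6.95% and 3.02% of all genes. PKP3, a desmosomal plakophilin, was at 37.5 in plko 1 and 29.7 in plko 2, against 109 to 184 with a median of 151 in the hairpin libraries. Both plko libraries were below every hairpin library (-2.09 ± 0.21, limma adjusted p = 6.29e-06). JUP, plakoglobin, which links cadherins to filaments, was at 163 and 276 against 421 to 589, with a median of 465. It was lower in both plko libraries and more so in plko 1 (-1.16 ± 0.19, limma adjusted p = 0.000481). AFDN and PKP4, an adherens junction scaffold and a plakophilin, were the 2 that were higher, by 0.83 and 0.76 on the log2 scale (limma adjusted p = 0.0275 and 0.0429). AFDN lost its call after thinning (0.164) and without plko 2 (0.21), and was at 0.0505 without shLACZ 2.

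**Figure D1:**
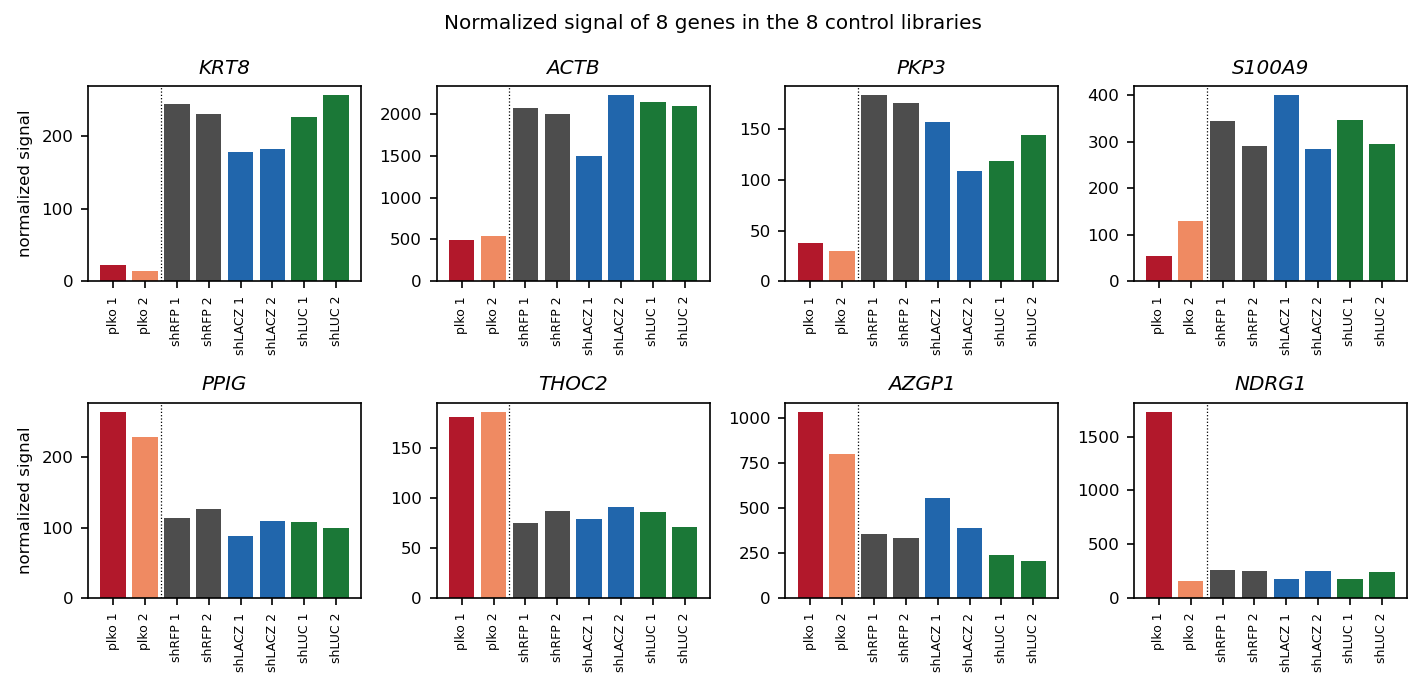
Normalized signal (linear axis from 0) of 8 genes in each of the 8 control libraries, 1 bar per library, with a dotted line between the plko and the hairpin libraries. KRT8, ACTB, PKP3 and S100A9 are lower and PPIG, THOC2 and AZGP1 higher in both plko libraries than in every hairpin library, while NDRG1 is at 1730 in plko 1 and at 156 in plko 2.

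Of 50 tested genes of the actin cytoskeleton 12 were lower and 1 was higher, beside 6.95% and 3.02% of all genes. The median log2 difference of the list was -0.15, beside 0.01 over all genes. By library it was -0.22 in plko 1 and -0.09 in plko 2. In the hairpin libraries it ran from -0.12 (shLACZ 1) to 0.07 (shRFP 1), so plko 2 was within their range. ACTB, beta-actin, was at 489.8 and 539.7 in plko 1 and plko 2 and at 1501 to 2225 in the hairpin libraries, with a median of 2085. Both plko libraries were under every hairpin library, by 1.95 ± 0.17 on the log2 scale (limma, -1.95, adjusted p = 4.01e-07). ACTG1, gamma-actin, was at 483 and 584 against 1028 to 1329 (-1.09, limma adjusted p = 0.000163). ACTB and ACTG1 are near-identical in their coding part and have processed pseudogenes, so that counting could have shifted reads between copies.

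The other actin genes called lower serve filament turnover and anchoring. PFN1, profilin, which loads actin monomers, was at 966 and 856 against 1589 to 2320 (-1.15, limma adjusted p = 0.000144). TAGLN2, a transgelin that bundles actin, was at 688 and 717 against 1324 to 1720 (-1.09, limma adjusted p = 0.000149). TPM3, a tropomyosin that lies along the filament, was at 117 and 82.4 against 192 to 232 (-1.09, limma adjusted p = 0.000475). These 3 genes had both plko libraries below all hairpin libraries. TMSB4X, the monomer-binding thymosin, CFL1, cofilin, and TLN1, talin, were lower by smaller steps of -0.85, -0.80 and -0.83, and PDLIM7, MYH14, ARPC4 and FLNA completed the 12. After GC correction 7 of the actin genes were called lower and 1 higher, beside 386 and 190 of 10308 genes. TLN1, PDLIM7, MYH14, ARPC4 and FLNA were then not called. CNN3, a calponin, was the 1 member that was higher, at 439 and 249 against 148 to 214 (0.82, limma adjusted p = 0.0116).

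SRF and its cofactors drive many actin genes through the CArG box, so promoters of 300 bases (250 before to 50 after the start site, RefSeq, GRCh38.p14) were searched for it on both strands. Of the actin genes called lower, 11 had a promoter in the table. ACTB was not among them, so its promoter was not searched. Of these 11, 2 held a CArG box (18.2%), ACTG1 and FLNA. Among the members not called lower it was 3 of 35 (8.57%), and 1.05% of the promoters of kept genes. SRF itself was at 13.2 in plko 1 and 34.1 in plko 2, against 26.4 to 51.4, and was called lower in plko 1 (-1.37, limma adjusted p = 0.011) but not with both plko libraries together (-0.72). A match is a description of these letters and not a binding site.

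Further genes lower in both plko libraries belonged to several cellular systems. ATP6V0D1, a subunit of the proton pump of lysosomes, was at 30.9 and 53.3 against 142 to 176 (-1.93, limma adjusted p = 7.07e-06). JPT1, a small microtubule-associated protein, was at 421 and 346 against 856 to 1126 (-1.40, limma adjusted p = 2.15e-05). ALG3, a mannosyltransferase of N-glycan assembly, was at 55.2 and 45.2 against 133 to 252 (-1.98, limma adjusted p = 2.15e-05). In these 3 genes no plko value reached the lowest hairpin value. CAPNS1, the small calpain subunit, SH3BGRL3 and BCAP31, an export chaperone of the endoplasmic reticulum, were lower by -1.69, -1.62 and -2.10 (limma adjusted p = 2.15e-05, 2.15e-05 and 3.05e-05). IER2, an immediate early gene, was at 57.4 and 46.5 against 116 to 145 (-1.32, limma adjusted p = 0.00011).

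Of 74 ribosomal protein genes, 23 were lower and 0 higher, beside 6.95% and 3.02% of all genes. The median of the list was -0.41, beside 0.01 over all genes. By library it was -0.51 in plko 1 and -0.27 in plko 2, and from -0.24 (shLUC 1) to 0.22 (shLACZ 2) in the hairpin libraries. The summed signal of the list was 29190 in plko 1, 30460 in plko 2 and 29210 in shLUC 1. In the other hairpin libraries this sum was 33830 to 41650, so shLUC 1 was as low as the plko libraries. RPL14 was at 373 and 387 in plko 1 and plko 2 and at 790.3 to 1119 in the hairpin libraries (-1.38, limma adjusted p = 2.15e-05). RPS14 was at 113 and 78.7 against 207 to 349 (-1.64, limma adjusted p = 3.05e-05). In both genes the plko libraries were under all hairpin libraries. Ribosomal protein genes have many processed pseudogenes, so single values are uncertain. RPL41 had 0 reads in plko 1 and is given without a fold.

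Nuclear genes of oxidative phosphorylation were lower at 18 of 67 members and higher at 0, beside 6.95% and 3.02% of all genes. The median of the list was -0.27, beside 0.01 over all genes. ATP5MC1, a ring subunit of the ATP synthase, was at 39.7 and 47.1 against 109 to 126, with the groups well apart (-1.42, limma adjusted p = 4.08e-05). COX8A of complex IV was at 316 and 398 against 578 to 781 (-0.87, limma adjusted p = 0.00175), and NDUFB2 of complex I at 110.3 and 133 against 184 to 247 (-0.82, limma adjusted p = 0.00377). COX8A lost its call without plko 1 (0.0512). In plko 2 alone 5 of the 67 were lower, beside 2.7% of all genes. After GC correction 11 were lower and 1 higher with both plko libraries together, beside 386 and 190 of 10308 genes. Mitochondrially encoded genes were not analysed here.

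**Figure D2:**
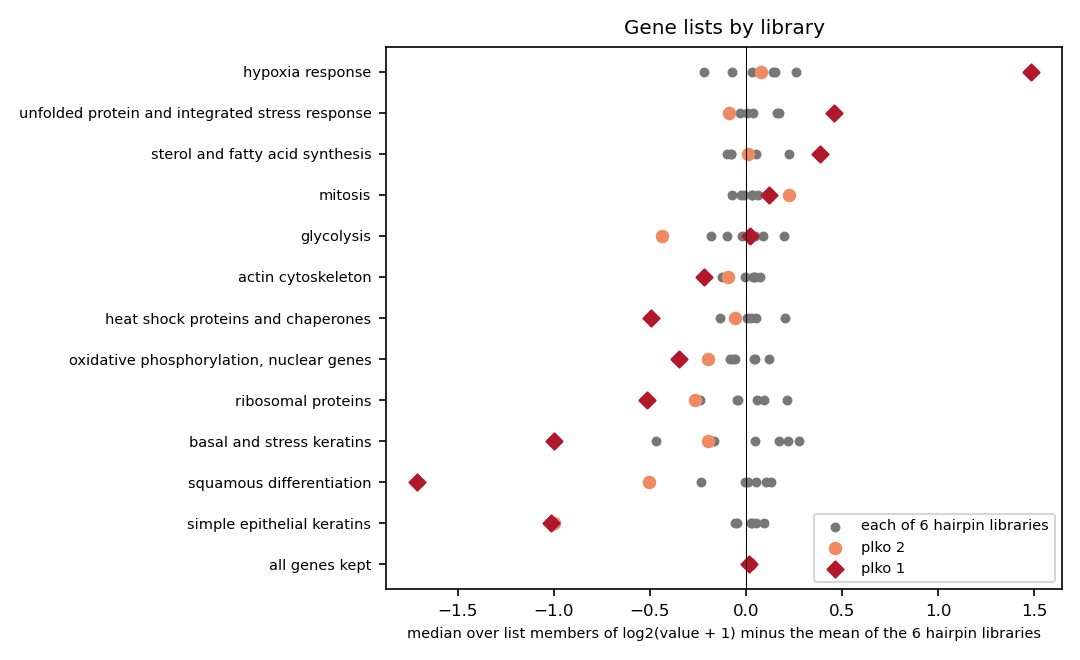
Median over the members of 12 gene lists, and over all genes kept, of the log2(value + 1) difference from the mean of the 6 hairpin libraries, with 1 point for each library. The hypoxia response list is at 1.49 in plko 1 and 0.08 in plko 2, and the simple keratins lie near -1 in both plko libraries.

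Genes higher in both plko libraries were fewer and changed less. PPIG, a nuclear cyclophilin of splicing speckles, was at 265 and 229, against 87.3 to 127 with a median of 109. Both plko libraries were above every hairpin library (1.20 ± 0.18, limma adjusted p = 0.000281). THOC2, a scaffold of the complex that couples transcription to mRNA export, was at 181 and 187 against 70.8 to 91 with a median of 82.3, again without overlap (1.17 ± 0.18, limma adjusted p = 0.000341). ANKRD12, a nuclear receptor corepressor-binding protein, was at 141 and 104 against 35.3 to 58.7 (1.40, limma adjusted p = 0.000548).

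AZGP1, the zinc-alpha-2 glycoprotein that luminal epithelium secretes, was at 1033 in plko 1 and 797 in plko 2. The hairpin libraries ran from 203 to 555, with both shLUC libraries lowest and shLACZ 1 highest. Both plko libraries were above all of them (1.47 ± 0.25, limma adjusted p = 0.000884). AZGP1 was also among the 12 genes called as differing between the hairpin constructs (limma F test, adjusted p = 0.0394). BCL6, a transcriptional repressor, was at 192 and 100.4 against 33.2 to 63.5 (1.40, limma adjusted p = 0.00161). In plko 2 alone BCL6 did not pass (0.93, limma adjusted p = 0.109), nor did ARHGAP29, a GTPase-activating protein that was at 225 and 98.5 against 49.3 to 64.7 (0.77, limma adjusted p = 0.108). COG6 of the Golgi tethering complex and SYCP2 of the meiotic chromosome axis were higher by 1.41 and 1.30 with both libraries together, and in plko 2 alone their limma adjusted p was 0.0534 and 0.0596.

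Further genes of the 12 with the smallest p in this direction act on chromosomes. SMC4, a condensin subunit, was at 677 and 633 against 238 to 383 (0.96 ± 0.18, limma adjusted p = 0.00161), and RAD21, the cleavable cohesin subunit, at 704 and 488 against 199 to 323 (1.05, limma adjusted p = 0.00157). ASPM, a spindle pole protein, was at 128 and 94.8 against 31 to 57.5 (1.27, limma adjusted p = 0.00169). In all 3 genes the plko values were above the hairpin range, although in plko 2 alone RAD21 and ASPM were at an adjusted p of 0.072 and 0.0601. Of 34 mitosis genes 6 were higher and 2 lower, beside 3.02% and 6.95% of all genes. The higher ones included TOP2A, topoisomerase II alpha (258 and 279 against 118 to 189.7), and CKS2, a cyclin-dependent kinase subunit (327 and 185 against 122 to 153), and the lower ones were CDC25B and AURKB. None of the 34 was called after thinning or after GC correction, so these calls depended on both settings.

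Of 34 genes of G1/S and DNA replication 5 were lower and 1 higher, beside 6.95% and 3.02% of all genes, and 3 were lower after thinning and after GC correction. LIG1, DNA ligase I, was at 17.6 and 20.5 against 39.6 to 74.6 (-1.59, limma adjusted p = 0.000255), TK1, thymidine kinase, at 121 and 107 against 186 to 241 (-0.89, limma adjusted p = 0.00223), and MCM5, a helicase subunit, at 48.5 and 50.8 against 82.7 to 98.7 (-0.91, limma adjusted p = 0.00309). RFC3, a clamp loader subunit, was the 1 that was higher, at 223 and 213 against 75 to 157. Of 20 p53 targets 3 were lower and 0 higher, also beside 6.95% and 3.02%. CDKN1A, the p21 inhibitor of cyclin-dependent kinases, was at 86 and 146 against 197 to 344 (-1.32, limma adjusted p = 0.000469), with no overlap, and PHLDA3 was lower by -1.07. PLK3 had 0 reads in plko 1 and 1 in plko 2, and no fold is given.

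The plko libraries were also set against each hairpin construct in turn. Against shRFP 89 genes were higher (0.862%) and 355 lower (3.44%), against shLACZ 156 (1.51%) and 345 (3.34%), and against shLUC 77 (0.746%) and 231 (2.24%). These comparisons share the plko libraries, and each sets 2 libraries against 2. A gene was called higher against each of the 3 constructs in 20 cases and lower in 163. KRT8 was lower by -3.67, -3.27 and -3.69 against shRFP, shLACZ and shLUC, and ACTB by -1.98, -1.83 and -2.04. AZGP1 was higher by 1.40, 0.97 and 2.04, in an order that followed its level in the 3 constructs.

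Levels in the targeted libraries were compared for some of these genes, to see whether other libraries of the series shared the plko values. KRT8 was at 13.5 and 12.8 in KLF5 1 and KLF5 2, at or below the plko values, and at 109.9 to 395 in the other 6 targeted libraries. ACTB was at 161 and 275 in the KLF5 libraries, and at 1144 to 2601 in the RBPJ, NFIB and FOXA1 libraries. RPL14 was at 115 and 174 with KLF5, also under the plko values, and AZGP1 at 1354 and 946. For these 4 genes the KLF5 libraries stood on the same side as plko. THOC2 was at 102 and 95.7 with KLF5, also above the hairpin range of 70.8 to 91, but well under the plko values of 181 or more. PPIG was at 124 and 128 with KLF5, near the top of the hairpin range of 87.3 to 127 and well under the plko values of 229 or more. Among genes named elsewhere, KLF5 1 and KLF5 2 were outside the hairpin range on the plko side for SERF2 (186 and 253), S100A9 (144 and 84) and KIT (87.4 and 54.8). For ANKRD12 (50.5 and 49) they were within it. Like plko, both KLF5 libraries were also below the hairpin range for KRT18 (11.4 and 15.2), PKP3 (22.8 and 58.3), ALG3, BCAP31, ATP6V0D1, JPT1, RPS14 and IER2. For RAD21 (396 and 418) and NFIB (493 and 522) they were above it, again like plko. They were within it for JUP, SMC4 and ASPM, and above it, opposite to plko, for KRT7 and FLNA. Several plko differences given here were thus shared by the KLF5 libraries. These genes are examples, and not every gene was compared in this way. The plko and KLF5 differences share the hairpin libraries as controls, so levels only are given.

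Genes of the hypoxia response were high in plko 1. Of 30 tested members, 20 were higher in plko 1 than in the hairpin libraries and 0 lower, with a median of 1.49, whereas in plko 2 the counts were 0 and 0 and the median 0.08. Among all genes 5.06% were called higher in plko 1. With both plko libraries together 8 were called higher, beside 3.02% of all genes. Without plko 1 these 8 lost their calls, with log2 differences of 0.18 to 0.69. NDRG1, a growth arrest and stress protein, was at 1730 in plko 1 and 156 in plko 2, against 175 to 258 with a median of 241 in the hairpin libraries. Plko 1 was far above, and plko 2 slightly below, all hairpin libraries (plko 1, 2.96 ± 0.23, limma adjusted p = 4.99e-08). In the 8 targeted libraries NDRG1 was at 123 to 365.

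ANKRD37, a small ankyrin protein induced by low oxygen, was at 110.3 in plko 1, 9.29 in plko 2 and 3.15 to 7.65 in the hairpin libraries (plko 1, 4.13 ± 0.53, limma adjusted p = 2.85e-05). CA9, a surface carbonic anhydrase that controls pH, was at 346 and 39.7 against 15.1 to 80.3, with a median of 47 (plko 1, 3.02, limma adjusted p = 0.000198). ADM, adrenomedullin, a vasodilating peptide hormone, was at 225 and 20.5 against 18.3 to 37.5 (plko 1, 3.06, limma adjusted p = 1.44e-05). In each of these genes plko 1 was above all 7 other control libraries.

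Further members cover the enzymes that sense oxygen, cell death regulators and growth factors. EGLN3, a prolyl hydroxylase that marks hypoxia-inducible factors for decay, was at 115 in plko 1 and 16.1 in plko 2, against 10.8 to 23.6 (plko 1, 2.93, limma adjusted p = 6.26e-05). DDIT4, an inhibitor of mTOR signalling, was at 161 and 21.7 against 16.1 to 40.8 (plko 1, 2.54, limma adjusted p = 0.000155). VEGFA, the angiogenic growth factor, was at 371 and 134.5 against 78.2 to 135 (plko 1, 1.75, limma adjusted p = 0.000136). Plko 2 lay within the hairpin range for all 3 genes. BNIP3 and BNIP3L, which tag mitochondria for removal, were higher in plko 1 by 1.89 and 2.11, P4HA1 and PLOD2, collagen hydroxylases, by 2.02 and 0.85, and SLC2A1, the GLUT1 glucose transporter, by 1.26. The members that were not called in plko 1 included EGLN1 (0.77), P4HA2 (0.80), PDK1 (0.93) and ANGPTL4 (1.03), and WSB1, at -0.16, was the 1 with a negative difference.

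**Figure D3:**
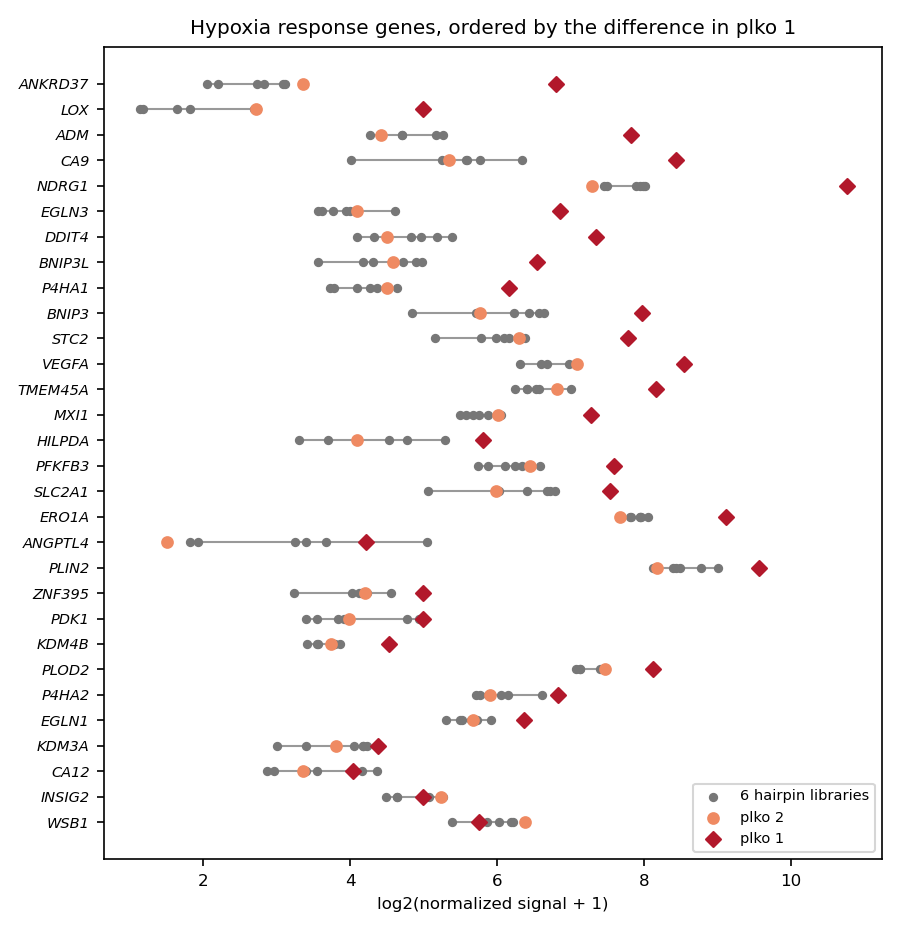
Log2(normalized signal + 1) of the 30 tested hypoxia response genes in each control library, ordered by the difference in plko 1, with grey points and a line for the 6 hairpin libraries. Plko 1 is above all hairpin libraries for every gene called, while plko 2 lies in or near the hairpin range.

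Hypoxia-inducible factors bind the letters ACGTG. Promoters are shown for 3 genes that had large differences in plko 1 and held these letters. ADM and EGLN3 also had large differences, but their promoters held no match and are not shown. The promoters run 5′ to 3′ on the gene's own strand, from 250 bases before to 50 after the start site. The capitals mark ACGTG or its reverse complement, and overlapping matches were counted separately. The promoters came from RefSeq and lie, in GRCh38.p14, at chr9:35673678-35673977 (CA9), chr4:185396591-185396890 (ANKRD37) and chr10:72273674-72273973 (DDIT4), all on the plus strand.
CA9: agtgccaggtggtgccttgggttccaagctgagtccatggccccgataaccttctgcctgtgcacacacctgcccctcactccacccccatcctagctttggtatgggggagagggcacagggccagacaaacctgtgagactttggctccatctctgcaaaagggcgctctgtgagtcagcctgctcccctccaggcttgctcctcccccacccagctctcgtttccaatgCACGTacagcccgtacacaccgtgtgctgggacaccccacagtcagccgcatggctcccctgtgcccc
ANKRD37: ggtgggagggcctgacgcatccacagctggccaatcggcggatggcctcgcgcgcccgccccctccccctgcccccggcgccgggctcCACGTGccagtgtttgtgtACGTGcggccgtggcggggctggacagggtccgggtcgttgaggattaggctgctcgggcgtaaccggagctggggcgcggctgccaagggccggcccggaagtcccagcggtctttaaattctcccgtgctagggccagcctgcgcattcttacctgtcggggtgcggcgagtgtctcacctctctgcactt
DDIT4: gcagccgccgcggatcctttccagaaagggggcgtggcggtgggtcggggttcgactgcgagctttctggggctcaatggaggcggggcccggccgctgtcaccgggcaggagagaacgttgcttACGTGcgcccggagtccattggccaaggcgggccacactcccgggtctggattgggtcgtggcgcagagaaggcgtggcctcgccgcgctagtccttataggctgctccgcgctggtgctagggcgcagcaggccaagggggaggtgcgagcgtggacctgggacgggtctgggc

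The match in CA9 starts at -18 from the start site and that in DDIT4 at -125. ANKRD37 has 3 matches, at -162, -161 and -143, of which the first 2 are the overlapping strands of 1 palindrome. Of the hypoxia genes called higher in plko 1, 16 had a promoter in the table and 9 of these held the letters (56.2%), and among the members not called it was 5 of 9 (55.6%). The share was 27.3% of the promoters of kept genes and 21.4% of all promoters in the table. ADM and EGLN3 held none in this window, which says nothing about sites elsewhere.

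Many glycolytic enzymes are known hypoxia targets. Of 16 tested, 2 were higher and 2 lower in plko 1, beside 5.06% and 9.62% of all genes. In plko 2, 0 were higher and 5 lower, beside 0.155% and 2.7% of all genes. PGK1, phosphoglycerate kinase, was at 2213 in plko 1 and 1198 in plko 2, against 844 to 1261 (plko 1, 1.13, limma adjusted p = 0.000664). PKM, pyruvate kinase, was at 1037 and 892 against 1514 to 1924, lower in both libraries (-0.83, limma adjusted p = 0.00202). PFKP, a phosphofructokinase, was at 271 and 133 against 274 to 415 and fell in plko 2 (-1.33, limma adjusted p = 0.000888). TPI1 and GAPDH were lower in plko 2 (-0.85 and -0.74), with differences of 0.21 and -0.03 in plko 1.

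Squamous and stress keratinocyte genes were lower in plko 1, at 12 of 21 members with 0 higher and a median of -1.71, beside 9.62% lower among all genes. In plko 2 it was 4 of 21, with a median of -0.50, and with both together 9 of 21, beside 2.7% and 6.95% of all genes. S100A9, the calprotectin subunit, was at 55.2 and 130.1 in plko 1 and plko 2, against 284 to 400 with a median of 321, and both libraries were below the range (-1.92 ± 0.23, limma adjusted p = 3.05e-05). PI3, the elastase inhibitor elafin, was at 61.8 and 136 against 169 to 503 (-1.93, limma adjusted p = 0.000328), and LCN2, an iron-scavenging lipocalin, at 203 and 389 against 544 to 882 (-1.31, limma adjusted p = 0.00048). S100A8, the partner of S100A9, was at 17.6 and 97.9 against 104 to 275, and in plko 2 its difference was -0.56 (limma adjusted p = 0.559). KLK10, an epidermal kallikrein, had 3 reads in plko 1, a value of 6.62, against 63.4 to 122 in the hairpin libraries and 27.3 in plko 2. SPRR1B and S100A7 had 0 reads in plko 1, and no fold is given for them.

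Of 10 basal and stress keratins 5 were lower in plko 1 and 0 in plko 2, beside 9.62% and 2.7% of all genes. KRT6A, a keratin of activated and wounded epidermis, was at 64 in plko 1 and 276 in plko 2, against 329 to 1103 with a median of 681. Plko 1 was far below the range and plko 2 just below it (plko 1, -3.23 ± 0.38, limma adjusted p = 1.53e-05, and plko 2, -1.13, limma adjusted p = 0.126). KRT6B was at 139 and 376 against 309 to 1040 (plko 1, -2.25), and KRT17 at 319.9 and 685 against 579 to 1329 (plko 1, -1.47). KRT80 and KRT16 were lower in plko 1 by -1.97 and -0.95. KRT6A and KRT6B are near-identical, so reads may have been shared between them. KRT14, a basal keratin, was at 33.1 and 50.2, within the hairpin range of 19.3 to 66.7.

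Chaperones were lower in plko 1 at 9 of 24 members and higher at 0, beside 9.62% and 5.06% of all genes. HSPB1, a small heat shock protein, was at 838 in plko 1, 2715 in plko 2 and 1785 to 3455 in the hairpin libraries, so that plko 1 was below the range and plko 2 inside it (plko 1, -1.72, limma adjusted p = 7.39e-05). AHSA1, an activator of HSP90, was at 53 and 52.1 against 108 to 184 and was lower in both (-1.48, limma adjusted p = 6.82e-05), as was HSP90AB1 (391 and 437 against 668 to 987). In the unfolded protein and integrated stress response list 9 of 34 were higher and 2 lower in plko 1, beside 5.06% and 9.62%. ASNS, asparagine synthetase, a target of ATF4, was at 368 and 111 against 54.2 to 172 (plko 1, 1.91, limma adjusted p = 0.0013), and PSAT1, a serine synthesis enzyme, at 878 and 393 against 233 to 431 (plko 1, 1.40). SDF2L1 and CALR, proteins of the endoplasmic reticulum lumen, were lower in both plko libraries, by -1.10 and -0.85 together.

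Sterol and fatty acid synthesis genes were higher in plko 1 at 7 of 34 members and lower at 1, beside 5.06% and 9.62% of all genes. In plko 2 they were 0 and 1, beside 0.155% and 2.7%. SCD, the stearoyl-CoA desaturase, was at 569 in plko 1, 185 in plko 2 and 140.3 to 206 in the hairpin libraries (plko 1, 1.77, limma adjusted p = 2.97e-05). MSMO1, a sterol methyl oxidase, was at 1952 and 1135 against 788 to 1016 (plko 1, 1.06, limma adjusted p = 0.000604). For both genes plko 1 was the highest control library. KIT, a receptor tyrosine kinase, was at 135 and 29.7 against 10.1 to 21.1 (plko 1, 3.02, limma adjusted p = 2.4e-05), and SERPINA5, a protease inhibitor, at 192 and 24.2 against 7.48 to 38.3 (plko 1, 3.36, limma adjusted p = 0.000171). Depth moved with all results of plko 1, which was the shallowest of the 8 libraries, and 168 of the 717 genes lower with both plko libraries together had 3 or fewer reads in plko 1. DHX38, a splicing helicase, and MUL1, a mitochondrial ubiquitin ligase, had 2 reads and 1 read there. In the hypoxia list 16 genes were called higher in plko 1 after thinning to that depth and 20 after GC correction.

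The genes that differed in plko 2 were almost all lower. SERF2, a small regulator of protein aggregation, was at 160 in plko 2 and 481 in plko 1, against 914 to 1265 with a median of 1018. Plko 2 was the lowest library, and both plko libraries were below the range (plko 2, -2.69 ± 0.20, limma adjusted p = 1.43e-08). PPP1R35, a centriole protein, was at 15.5 in plko 2 and 81.6 in plko 1, against 98 to 139 (plko 2, -2.76, limma adjusted p = 5.65e-07, and plko 1, -0.43, limma adjusted p = 0.254). IFITM1, which blocks viral entry at the membrane, was at 3.72 and 22.1 against 29 to 113 (plko 2, -3.42, limma adjusted p = 0.000215), with 6 reads in plko 2. IFITM1 has close paralogs, and its value is uncertain for that reason. CITED4, a coactivator of CBP/p300, was at 10.5 in plko 2 and 15.4 in plko 1, against 27.7 to 100 (plko 2, -2.30, limma adjusted p = 0.0039).

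Among the 16 genes higher in plko 2 was NFIB, a transcription factor targeted in other libraries of the series, at 607 in plko 2 and 461 in plko 1 against 309 to 366 (plko 2, 0.86, limma adjusted p = 0.0124). Both plko libraries were above the hairpin range. Without shRFP 1 the 295 genes called in plko 2 became 183, and after GC correction 132, of which 20 were higher and 112 lower.

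**Figure D4:**
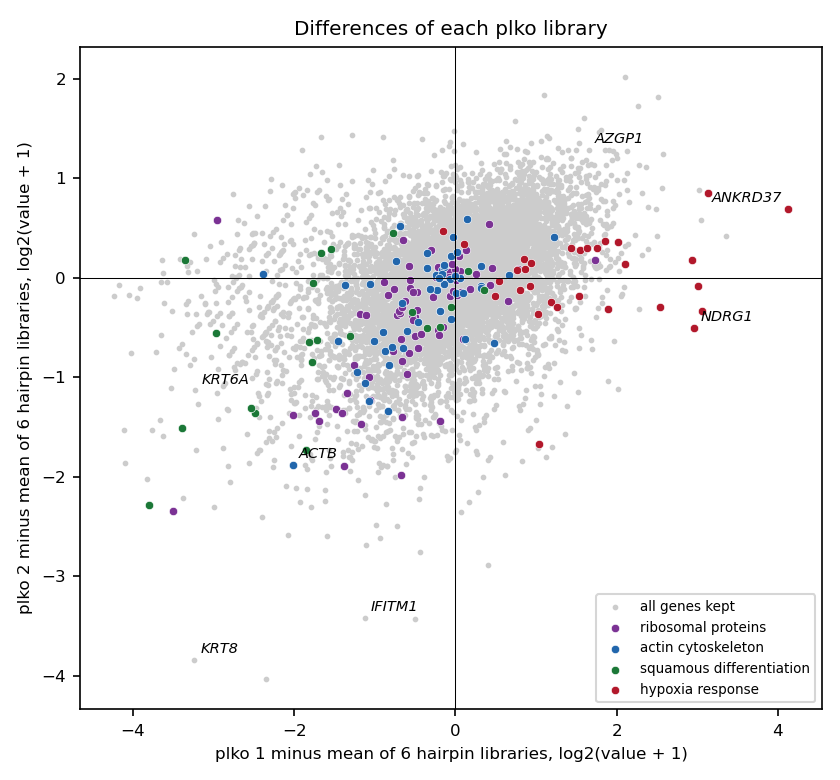
Difference from the mean of the 6 hairpin libraries in plko 1 (x axis) and plko 2 (y axis), both on the log2(value + 1) scale, with 1 point per gene and 4 gene lists in colour. KRT8 and ACTB are low on both axes, and the hypoxia genes spread to the right along the x axis, up to 4.13 for ANKRD37.

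The difference between the 2 plko libraries was tested directly. Relative to plko 1, plko 2 was higher at 57 genes (0.552%) and lower at 34 (0.329%). NDRG1 (-3.46), ADM (-3.40), CA9 (-3.09), SERPINA5 (-2.94), DDIT4 (-2.84) and EGLN3 (-2.76) were the 6 largest decreases among called genes with a mean of 20 or more over the 8 libraries, with limma adjusted p of 8.83e-07 for NDRG1 and 0.0404 for SERPINA5. Of the 30 hypoxia genes 9 were lower in plko 2 than in plko 1 and 0 higher, and of 21 squamous genes 4 were higher and 0 lower. EXOSC6, an RNA exosome subunit, was at 17.6 in plko 1 and 87.4 in plko 2 against 73.1 to 117 (2.24, limma adjusted p = 0.00234). For STAC, WDR90 and TMEM241, also among the 6 largest increases under the same limit on the mean, plko 1 had 1 or 2 reads, and edgeR gave an adjusted p of 0.224, 0.287 and 0.244. The count of 91 became 57 without shRFP 1, 60 without shRFP 2 and 145 without shLACZ 1. With edgeR it was 28 (6 higher, 22 lower), with DESeq2 42 (12 higher, 30 lower) and after thinning 23 (6 higher, 17 lower), so that the balance of directions turned from mostly higher to mostly lower in plko 2.

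Genes that handle hairpin RNA were of interest because the empty vector and the hairpin constructs differ in what they load into that machinery. Of 18 tested, 1 was lower and 0 higher with both plko libraries together, beside 3.02% higher and 6.95% lower among all genes. The median of the list was -0.27 in plko 1, with 6 of 18 members above the hairpin mean, and 0.24 in plko 2, with 13 of 18 above it, and with both together it was 0.01. In plko 1 alone 1 was called higher and 1 lower, and in plko 2 alone 0 and 0. MOV10, an RNA helicase that binds Argonaute, was the member that was lower, at 15.4 and 26 against 30.6 to 52.1 (-0.95 ± 0.26, limma adjusted p = 0.0247). Its call was lost after thinning (0.109), after GC correction (0.139), without plko 1 (0.427), with edgeR (0.0758) and with DESeq2 (0.117). DICER1 was at 30.9 and 46.5, inside the hairpin range of 15.3 to 48.5. AGO2, the slicing Argonaute, was at 128 and 107 against 60.5 to 154, and DROSHA, which cuts primary microRNAs, at 72.8 and 91.1 against 77.4 to 128. XPO5, the export receptor of hairpins, was at 26.5 and 34.7 against 26.7 to 34.3. The differences were 0.28 ± 0.34 for DICER1, 0.38 ± 0.28 for AGO2, -0.24 ± 0.21 for DROSHA and 0.00 ± 0.24 for XPO5, and these errors do not show that the levels were alike.

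Of 14 genes that sense double-stranded RNA 1 was higher and 2 lower, beside 3.02% and 6.95% of all genes. OAS3, an oligoadenylate synthetase, was at 236 and 206 against 76.5 to 140.3, above all hairpin libraries in both (1.08 ± 0.20, limma adjusted p = 0.0017), and reached 235 in NFIB 2 among the targeted libraries. OASL, a related protein without that enzyme activity, was at 13.2 and 4.96 against 13.6 to 32.3 (-1.25, limma adjusted p = 0.0371), and IRF3, the transcription factor downstream of the sensors, at 28.7 and 71.9 against 67.4 to 98 (-0.88, limma adjusted p = 0.0322). OASL and IRF3 lost their calls after thinning and after GC correction. EIF2AK2, the kinase PKR, was at 121 and 92.3 against 70.7 to 118, and IFIH1, the sensor MDA5, at 17.6 and 10.5 against 6.8 to 11.3, and neither was called.

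Of 32 interferon-stimulated genes 1 was higher and 2 lower, shares near the 3.02% and 6.95% of all genes. BST2, tetherin, was at 150 and 102 against 266 to 517, below the range in both (-1.55 ± 0.22, limma adjusted p = 0.000106). IFI6, a mitochondrial antiapoptotic protein, was at 973 and 367 against 142 to 524 (1.25, limma adjusted p = 0.0393), a call that was lost without plko 1 (0.667), shRFP 1 (0.0773), shRFP 2 (0.0811) or shLUC 2 (0.0606) and with DESeq2 (0.243). In antigen presentation 2 of 17 were lower, CALR and HLA-C, the latter one of several similar HLA genes that can share reads, and in plko 1 alone B2M was higher, at 8675 against 3083 to 5659 (1.03, limma adjusted p = 0.0059). Among 22 NF-kB and chemokine genes 4 were lower, of which CXCL16, a membrane chemokine, was at 110.3 and 146 against 220 to 290 (-0.99, limma adjusted p = 0.00105). LIF and CCL2 had 0 reads in plko 1, and the call of CCL2 was lost in most alternatives.

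The remaining lists had few calls with both plko libraries together. Hemidesmosome and laminin-332 genes were lower at 3 of 11, with PLEC, plectin, at 11 and 16.1 against 32.1 to 52.4 (-1.54, limma adjusted p = 0.000654). Basal epithelial genes were lower at 3 of 16 and higher at 1, with SFN, the 14-3-3 sigma protein, at 395 and 435 against 729 to 928 (-0.96, limma adjusted p = 0.00045). Luminal epithelial genes were higher at 2 (AZGP1 and KIT) and lower at 3 of 20. YAP/TEAD targets were lower at 3 of 16, with CCN1 at 13.2 and 16.7 against 32.4 to 57 (-1.44, limma adjusted p = 0.000884). Tight junction genes counted 2 higher and 1 lower of 25, EGF ligands and immediate MAPK genes 1 and 2 of 24, aminoacyl-tRNA synthetases 2 and 1 of 22, mesenchymal genes 0 and 1 of 16, replication-dependent histones 0 and 1 of 12, and polymerase II elongation and cleavage factors 0 and 1 of 34. Each of these 6 lists had at most 2 calls in a direction, beside 3.02% higher and 6.95% lower among all genes.

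The genes called in plko shared a property of their sequence. Median GC content of the transcripts (GENCODE release 29) was 43% (42.95) for the 312 genes called higher and 57.5% for the 717 called lower, beside 49.2% for all genes kept. For the 279 genes lower in plko 2 it was 58.5%. Among 5 equal groups of genes by GC content, 6.5% were called higher and 0.582% lower in the lowest group, and 0.921% and 14.4% in the highest. The median difference from the hairpin mean fell from 0.32 in the lowest to -0.30 in the highest group in plko 1, and from 0.26 to -0.30 in plko 2. The highest minus the lowest group was -0.62 in plko 1 and -0.56 in plko 2, and -0.11 to 0.12 in the hairpin libraries. In the targeted libraries it was -0.32 in FOXA1 1, 0.04 in KLF5 1, -0.11 in KLF5 2 and -0.16 to 0.16 in the others.

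Across 10308 genes with a sequence, the difference correlated with GC content at Pearson's r = -0.28 in plko 1 and -0.41 in plko 2, with Spearman's rank coefficients of -0.31 and -0.42, as a description of genes that share a library. Genes called lower also had shorter transcripts, with a median of 1308 bases, against 1997 for those higher and 1800 for all. After a correction for GC content, an alternative chosen after seeing the data, 190 genes were higher and 386 lower with both plko libraries together, of which 110 and 349 were also called before it. KRT8 (-3.23, limma adjusted p = 3.38e-09), ACTB (-1.64, limma adjusted p = 2.26e-05), PKP3 (-1.79, limma adjusted p = 3.14e-05), PPIG (0.92, limma adjusted p = 0.004) and AZGP1 (1.65, limma adjusted p = 0.000623) still passed with the correction. The part of GC content in the other calls was not tested beyond this correction. No source used here tells which libraries shared a barcoding batch or were run again, so a batch and the plko construct cannot be told apart.

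**Figure D5:**
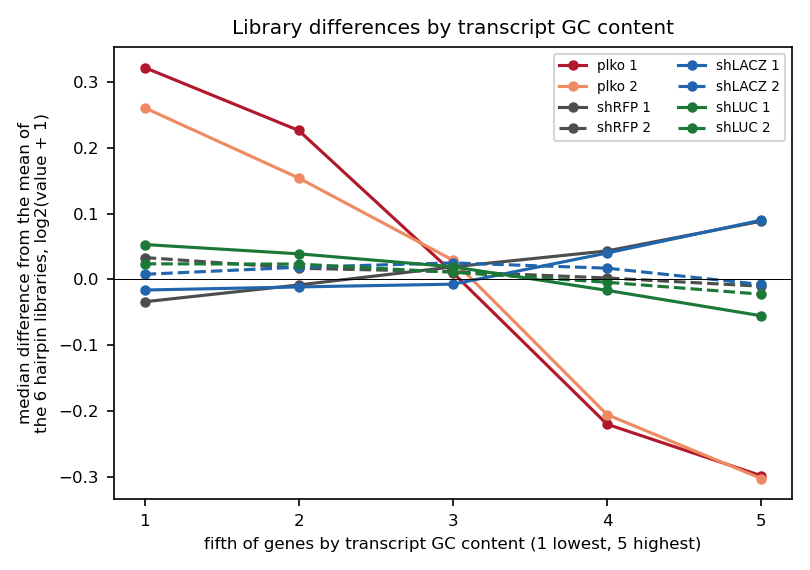
Median difference from the mean of the 6 hairpin libraries (log2(value + 1)) for 5 groups of genes ordered by transcript GC content, with 1 line per library. Both plko libraries fall from about 0.3 in the lowest to -0.3 in the highest group, and the hairpin libraries stay between -0.06 and 0.09.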

How the data were processed

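RNA was measured in HCC70 cells by 3′ cDNA barcoding in batches of 12 samples and amplification by in vitro transcription, per the labels' protocols, which add that some samples were run a 2nd time. The authors deposited 1 table of 11282 genes with a normalized signal per gene and library, which the table's name credits to DESeq2. Per the submitters' processing notes the build was GRCh37, with aligner, counter and use of molecular identifiers not given in the sources used here. For all libraries 100% of the deposited signal values came out as whole reads (tolerance 0.05) once divided by what a single read is worth there. The 2 columns that match no sample described here were not used. Symbols were found for 11259 identifiers.

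Depth ran from 375713 recovered reads (plko 1) to 1264671 (shLUC 1), where 3 reads are worth 6.62 in plko 1 and 1.86 in plko 2. This floor covers counting error only. Chi-square per degree of freedom between the 2 libraries of a construct was 1.84 to 3.99, above sampling noise, and they were kept as separate samples. The 10323 genes with a value of 5 or more in at least 2 of the 8 libraries were tested with limma 3.58.1 (R 4.3.3), with a mean-variance trend, on log2(value + 1), which understates the change of low genes. Tests were 2-sided, with calls at a Benjamini-Hochberg adjusted p under 0.05. Contrasts were plko against hairpins (2 levels), each plko library alone and their difference (3 levels), and plko against each construct (4 levels). Scripts were tested on simulated data.

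Alternatives were pseudocounts of 0.5 and 5, no filter, a minimum of 20, quantile normalization, thinning to the shallowest library, the replicate block, leaving out each library, edgeR 4.0.16 and DESeq2 1.42.0 on the recovered reads, and, added after seeing the data, a GC correction and the block and left-out libraries for the difference between the plko libraries. Some calls of the edgeR test and of DESeq2 are given beside the main ones. Named genes were, of those past the test with both plko libraries outside the hairpin range and a mean of 20 or more, the 12 of smallest p in each direction, for single plko libraries and their difference the 6 largest differences each way with that mean, up to 4 members of each gene list past the test, all hypoxia, actin, keratin and hairpin-handling members with that mean, and KRT8, ACTB, PKP3 and AZGP1. Genes named outside this rule, chosen after their values were seen, were PKP4, NDUFB2, RFC3, AURKB, PI3, RPL41, SPRR1B, S100A7, ANGPTL4, PDK1, IFIH1 and the cell type markers. The genes, the lists and the separate treatment of plko 1 were chosen with earlier results of these data known. Promoters were taken from a RefSeq table (GRCh38.p14), which has no entry for some genes, and transcript length and GC content from GENCODE release 29, matched by identifier. The mitochondrially encoded and nuclear-retained RNAs were not analysed here.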

Additional observations from a re-analysis of the deposited data

Results flagged for a closer look

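For 16 of the named genes, 1 hairpin library stood apart from the other 5 by Dixon's test at the 95% level, which chance also gives for some genes among the many examined, and no explanation was tested. In shLACZ 1 these were ACTB, the lowest hairpin value at 1501 and still above both plko libraries, HSPB1 (1785), SMC4 (238), VCL, a focal adhesion protein (43.6), all low, and NELFCD (177), high. In shLACZ 2 KLK10 (122) and NDUFA4 (392) were high, and RAD21 (199) and ARPC5, an actin-nucleating subunit (426), were low. In shLUC 1 BCAP31 (137), RPS14 (207) and KRT23, an epithelial keratin (32.8), were low and SYCP2 (57.4) was high. In shRFP 2 EPRS1 (183) was high, and H2AX (22.8) and MCM5 (82.7) were low. NDUFA4 was called lower with both plko libraries together (-0.81), and without shLACZ 2 its limma adjusted p was 0.0524.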

How the results depend on the processing

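With 1 library left out, calls ran from 310 to 1535 for plko against hairpins, 1304 to 1763 for plko 1, 183 to 321 for plko 2, 57 to 145 for plko 2 minus plko 1 (91 in all) and 0 to 23 among the hairpin constructs. Thinning gave 523, 524 and 23 calls for plko against hairpins, plko 1 and plko 2 minus plko 1, and 0 among hairpin constructs, as did quantile normalization there. GC correction gave 576, 132, 177, 163 and 144 for plko, plko 2 and plko against shRFP, shLACZ and shLUC. For plko 1 edgeR gave 566 and DESeq2 468 calls, and for plko 2 minus plko 1 they gave 28 and 42, with 141 and 52 at pseudocounts of 0.5 and 5. The replicate block gave 26 calls for plko 2 minus plko 1 and 495 against shLUC (308 without it). Same-numbered libraries share only a number: the correlation of their deviations was 0.004 to 0.086. The median of the endothelial list, 1 gene, turned from -0.47 to 0.12 in plko 2 after thinning. Except where a setting's own construction shows it, the cause was not tested. Of single-gene and list values, 48 lost their call after thinning, 50 after GC correction and 59 without plko 1. Depth limits plko 1 most, where genes under 3 reads have no usable fold. Clone, barcoding batch and repeat runs cannot be told apart from the construct.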
